A study of Mus musculus with 8 samples.

Results

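The 10 genes described here are classical readouts and regulators of glucocorticoid signaling: Nr3c1, Hsd11b1, Fkbp5, Tsc22d3, Zbtb16, Sgk1, Dusp1, Mt1, Mt2 and Cdkn1a. They were taken by gene symbol from the deposited table of 23420 genes, and all 10 were found and passed the filter on low values (a mean of at least 10 normalized reads). RNA was taken from whole aortas of irradiated ApoE-/- mice, irradiated at 6 weeks of age, given fetal liver cells of day 14 embryos, left for 6 weeks and then infused with angiotensin II at 1 µg/kg/min for 28 days. In 4 mice (Ntn1-/- chimeras, replicates A to D) the donor cells were Ntn1-/- ApoE-/-, and in the other 4 (WT chimeras, replicates A to D) they were Ntn1+/+ ApoE-/-, so that donors and recipients of both groups lacked ApoE and the mice differed in the Ntn1 genotype of the transplanted cells. Each library came from 1 mouse, and the sources used here do not give the sex or the hour of collection. The deleted gene, Ntn1, was read at 5273 to 10224 normalized reads in Ntn1-/- chimeras and 6002 to 9870 in WT chimeras (log2 fold change 0.04, standard error 0.24, adjusted p = 0.959 by limma). Cells of the recipient's own aortic wall keep an intact Ntn1 gene, which limits what this measurement can say of the donor genotype.

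Glucocorticoids, chiefly corticosterone in mice, bind the receptor encoded by Nr3c1. The receptor is held in the cytoplasm by HSP90 and its co-chaperones, moves to the nucleus with hormone, and binds palindromic glucocorticoid response elements near genes such as Fkbp5, Tsc22d3, Zbtb16 and Sgk1. Within a tissue, the enzyme encoded by Hsd11b1 regenerates active hormone from its inert keto form. In arteries, smooth muscle cells, endothelial cells and macrophages all carry the receptor, and macrophages respond to the hormone with genes such as Tsc22d3 that dampen inflammation.

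To show where motifs of these pathways lie, the 250 bases before an annotated start were read for 8 of the 10 members from RefSeq sequences of the build GRCm38.p6, with 6 windows for Sgk1, 3 for Tsc22d3, 2 for Cdkn1a and 1 for each of the others. Zbtb16 and Nr3c1 had no window. The windows printed are 1 each for Mt1, Mt2, Tsc22d3, Dusp1 and Sgk1, all 5 holding a motif marked below, and that of Sgk1 holds the palindrome. Other windows with a motif, of Sgk1 and Hsd11b1, and all windows without a motif are not printed. The display therefore does not show how common the motifs are. Capitals mark the metal response element core (TGCACNC or TGCGCNC), the arm of the glucocorticoid response element (AGAACA), whose palindrome has a second arm (TGTTCT) after 3 bases, and the cyclic AMP response element (TGACGTCA), on either strand.
Mt1 (chr8:94178839-94179088, plus strand): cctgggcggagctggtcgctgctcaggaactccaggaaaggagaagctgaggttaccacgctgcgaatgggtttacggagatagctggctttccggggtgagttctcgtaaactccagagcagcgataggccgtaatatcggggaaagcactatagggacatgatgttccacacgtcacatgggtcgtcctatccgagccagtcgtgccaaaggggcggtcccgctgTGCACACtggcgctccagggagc
Mt2 (chr8:94172368-94172617, plus strand): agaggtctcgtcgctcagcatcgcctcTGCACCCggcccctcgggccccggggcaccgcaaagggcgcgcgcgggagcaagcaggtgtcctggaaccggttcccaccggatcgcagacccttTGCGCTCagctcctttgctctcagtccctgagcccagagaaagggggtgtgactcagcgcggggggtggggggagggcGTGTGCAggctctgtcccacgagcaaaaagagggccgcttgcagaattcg
Sgk1 (chr10:21993640-21993889, plus strand): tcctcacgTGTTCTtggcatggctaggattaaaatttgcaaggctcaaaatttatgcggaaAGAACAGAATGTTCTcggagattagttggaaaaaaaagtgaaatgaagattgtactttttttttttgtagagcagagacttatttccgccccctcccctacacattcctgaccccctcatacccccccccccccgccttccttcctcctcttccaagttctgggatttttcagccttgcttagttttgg
Tsc22d3 (chrX:140600523-140600772, minus strand): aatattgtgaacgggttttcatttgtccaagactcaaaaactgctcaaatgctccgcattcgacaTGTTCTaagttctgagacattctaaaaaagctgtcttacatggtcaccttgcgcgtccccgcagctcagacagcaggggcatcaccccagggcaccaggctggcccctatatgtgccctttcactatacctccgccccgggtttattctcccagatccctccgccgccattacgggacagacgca
Dusp1 (chr17:26508473-26508722, minus strand): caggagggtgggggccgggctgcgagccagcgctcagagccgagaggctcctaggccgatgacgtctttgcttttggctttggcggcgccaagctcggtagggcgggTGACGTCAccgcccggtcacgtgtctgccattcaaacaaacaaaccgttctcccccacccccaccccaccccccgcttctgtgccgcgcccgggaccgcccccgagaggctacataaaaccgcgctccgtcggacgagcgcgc
The Sgk1 window printed was the only member window with the palindrome, at -189 from the start, and 3 of 32851 windows of all genes (0.00913%) held it. The hexamers at -189 and -180 are the 2 arms of that palindrome, and a further arm lay at -242. The Tsc22d3 window held 1 arm, at -185, a motif of 16.1% of all windows. Mt2 held 3 metal response cores, at -223, -128 and -50, where 1.26% of all windows held 3 or more and 21.4% at least 1. Mt1, which starts 5522 bases after the end of Mt2 on chromosome 8, held 1 core at -23. Each window ends at the annotated start, and elements beyond it were not read. The numbers of cores in the Mt1 and Mt2 windows therefore do not compare the promoters of these genes. The cyclic AMP element of Dusp1 lay at -143, and 1.55% of windows held one. Hsd11b1 held 1 metal response core, at -237, and the windows of Fkbp5 and Cdkn1a held none of these motifs. A match is a description of letters, not of binding.

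Some libraries stood apart by transcripts of neighbouring tissue. The 6 neuron markers summed to 8978 and 6918 normalized reads in Ntn1-/- B and C against at most 2596 in any other library, and 6 skeletal muscle markers to 6839 and 6799 there against at most 2476. The 8 liver markers summed to 398 to 1923 in Ntn1-/- chimeras and to 625 to 8985 in WT chimeras, where A, C and D were high. The 4 cardiac muscle markers summed to 6566 in WT C against at most 2332 elsewhere, and the 4 brown fat markers to 83600 in WT D against at most 46301 elsewhere. Gene positions below are in mm9.

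None of the 10 members passed an adjusted p of 0.05 by limma, and 0% of the 14931 genes tested did. At an unadjusted p under 0.05, 2 members were higher in Ntn1-/- chimeras (Nr3c1 and Zbtb16), beside 8.37% of all genes tested, and 1 was lower (Cdkn1a), beside 7.25%. The libraries of the groups did not overlap at 1 member, Nr3c1, which was higher in Ntn1-/- chimeras. Over all genes, 5.13% were higher and 5.34% lower without overlap. By DESeq2 on the recovered reads, 3.64% of genes passed an adjusted p of 0.05 and no member did. The estimates of the members were split 5 higher and 5 lower, with a median log2 fold change of 0.0058, beside 47.6% higher and a median of -0.015 over all genes. In whole aorta, fewer cells of a type and less RNA per cell cannot be told apart. With 4 mice against 4, the smallest p that the exact 2-sided permutation test of a single gene can give is 0.0286.

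**Figure D1:**
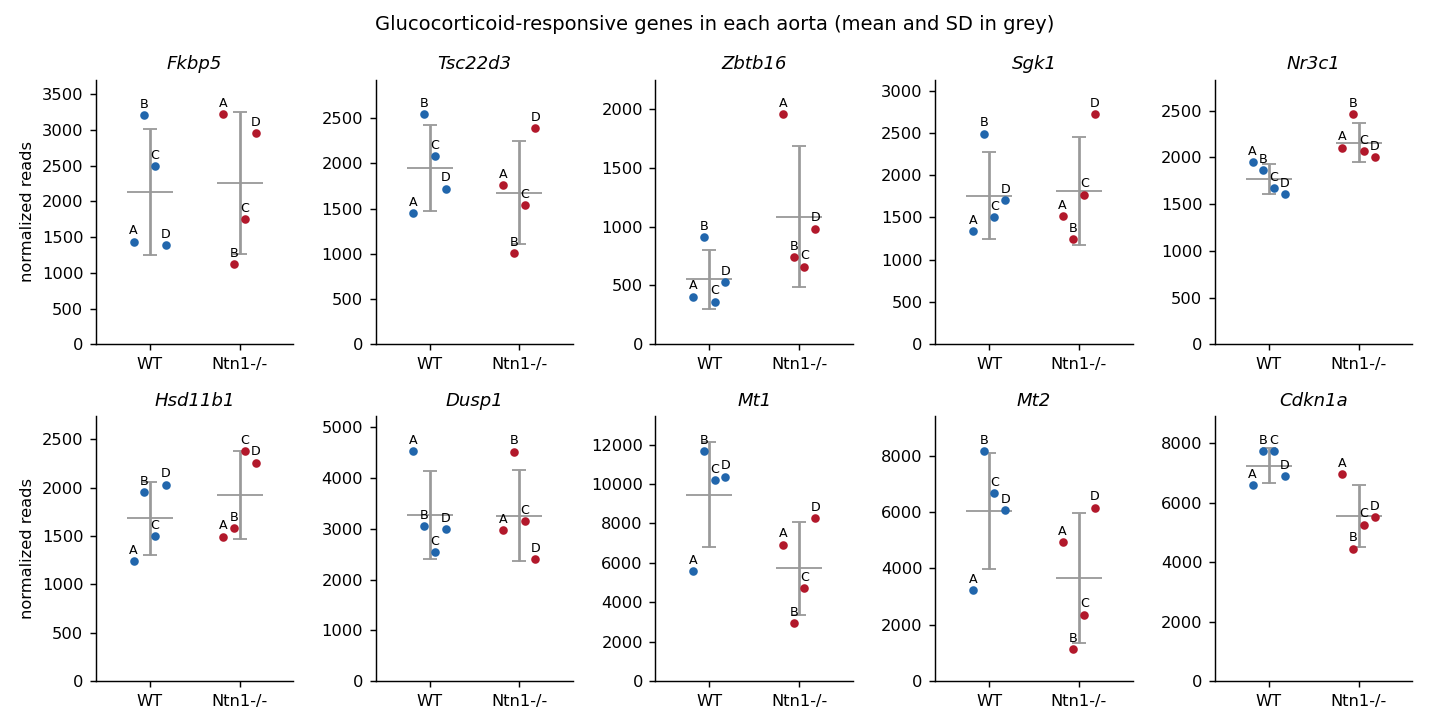
Normalized reads (y axis, from 0) of the 10 members in each of 8 aortas, with WT chimeras in blue and Ntn1-/- chimeras in red, letters for replicates, and the mean and SD of 4 libraries in grey. The groups overlap in every panel but that of Nr3c1, where the 4 Ntn1-/- libraries sit between 2006 and 2463 and the 4 WT libraries between 1606 and 1949.

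The receptor gene Nr3c1 (chr18:39570199-39650955 of mm9, minus strand) was read at 2105, 2463, 2065 and 2006 normalized reads in Ntn1-/- chimeras A to D and at 1949, 1867, 1668 and 1606 in WT chimeras A to D. Every Ntn1-/- library was above every WT library, and the nearest values of the groups were those of Ntn1-/- D and WT A. The means were 2159 ± 206 (SD, n = 4) and 1773 ± 162 (SD, n = 4), a log2 fold change of 0.28 (standard error 0.093, adjusted p = 0.253 by limma; exact permutation p = 0.0286, n = 4 per group). Nr3c1 also spread little within groups, with a within-group SD at the 27.5th percentile of all genes. When each library was corrected for gene length and GC content, the log2 fold change was 0.12 (unadjusted p = 0.154 by limma). Without that correction, it was 0.22 leaving out Ntn1-/- replicates B and C (unadjusted p = 0.080 by limma). Leaving out WT replicates C and D it was 0.17 (unadjusted p = 0.156 by limma). WT A, with liver transcripts close to those of C, stayed in that fit, and leaving out WT A alone gave 0.33.

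Hsd11b1, whose product regenerates active hormone (chr1:195047824-195090248, minus strand), was read at 1493, 1577, 2380 and 2259 normalized reads in Ntn1-/- chimeras and 1238, 1957, 1497 and 2030 in WT chimeras. The lowest library was WT A and the highest Ntn1-/- C, and the ranges overlapped. The log2 fold change was 0.20 (standard error 0.21, 95% interval -0.28 to 0.67, adjusted p = 0.676 by limma). It was 0.058 without WT A and 0.084 without Ntn1-/- C, and 0.058 to 0.31 over all fits that left out 1 library.

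Fkbp5, which encodes a co-chaperone that lowers the receptor's affinity for hormone and is itself induced by the receptor (chr17:28536040-28654469, minus strand), was read at 3222, 1117, 1748 and 2958 in Ntn1-/- chimeras and 1436, 3212, 2490 and 1386 in WT chimeras. High and low libraries occurred in both groups, with A and D high in Ntn1-/- chimeras and B and C high in WT chimeras. The highest library held 2.88 times the reads of the lowest, and the within-group SD lay at the 92.6th percentile of all genes. The difference between the groups was 0.056 in log2 (standard error 0.39, 95% interval -0.83 to 0.94, adjusted p = 0.964 by limma). Without Ntn1-/- replicates B and C, the libraries rich in neuron and muscle transcripts, the estimate was 0.63 (adjusted p = 0.444), and its sign turned under several other settings.

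Tsc22d3, also called GILZ, encodes a leucine zipper protein that restrains inflammatory transcription factors (chrX:137074067-137135198, minus strand). Its libraries held 1764, 1011, 1543 and 2392 normalized reads in Ntn1-/- chimeras and 1448, 2545, 2081 and 1722 in WT chimeras. Ntn1-/- B was the lowest of all 8 and WT B the highest. The log2 fold change was -0.25 (standard error 0.26, adjusted p = 0.673 by limma), and it was 0.11 without Ntn1-/- B and C. Leaving out Ntn1-/- B alone gave -0.030 and leaving out WT B alone -0.11.

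Zbtb16, the transcription factor PLZF (chr9:48462416-48644050, minus strand), had the largest positive estimate of the members. It was read at 1955, 743, 661 and 983 normalized reads in Ntn1-/- chimeras and at 404, 911, 361 and 527 in WT chimeras. Ntn1-/- A stood high, and WT B lay within the range of the Ntn1-/- libraries. The means were 1085 ± 596 (SD, n = 4) and 551 ± 250 (SD, n = 4), with a log2 fold change of 0.94 (standard error 0.39, adjusted p = 0.297 by limma; exact permutation p = 0.114, n = 4 per group). Of the settings tried, the estimate ran from 0.61 to 1.43. It was 0.61 without Ntn1-/- replicate A, 0.70 without WT replicates C and D, and 1.43 without Ntn1-/- replicates B and C.

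Sgk1, a kinase induced by glucocorticoids and mineralocorticoids (chr10:21601990-21719709, plus strand), was read at 1515, 1248, 1771 and 2722 in Ntn1-/- chimeras and 1339, 2493, 1503 and 1702 in WT chimeras. Ntn1-/- D and WT B were the highest libraries of their groups, and the ranges overlapped. The log2 fold change was 0.023 (standard error 0.26, 95% interval -0.57 to 0.62, adjusted p = 0.979 by limma). It was 0.25 without Ntn1-/- B and C and -0.073 without WT C and D.

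Dusp1, a phosphatase that switches off MAP kinases and is induced both by glucocorticoids and by acute stress (chr17:26642535-26645464, minus strand), was read at 2969, 4526, 3151 and 2406 in Ntn1-/- chimeras and 4538, 3051, 2539 and 2993 in WT chimeras. Its highest libraries, WT A and Ntn1-/- B, were among the lowest for Tsc22d3, Sgk1 and Mt2. The log2 fold change was -0.012 (standard error 0.22, adjusted p = 0.988 by limma). It was -0.26 without Ntn1-/- B and C and -0.23 without WT C and D.

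The metallothioneins Mt1 and Mt2 encode small cysteine-rich proteins that bind zinc and copper, and both metals and glucocorticoids induce them. Mt1 (chr8:96702989-96704225, plus strand) was read at 6928, 2954, 4721 and 8267 in Ntn1-/- chimeras and 5587, 11682, 10207 and 10380 in WT chimeras. The WT libraries B, C and D lay above every Ntn1-/- library, and WT A lay below Ntn1-/- A. The log2 fold change was -0.78 (standard error 0.34, adjusted p = 0.321 by limma; exact permutation p = 0.0857, n = 4 per group).

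Mt2 (chr8:96696518-96697467, plus strand) was read at 4945, 1134, 2354 and 6165 in Ntn1-/- chimeras and 3240, 8178, 6667 and 6069 in WT chimeras. The highest library, WT B, held 7.21 times the reads of the lowest, Ntn1-/- B, the widest range of the 10 members. The log2 fold change was -0.93 (standard error 0.52, adjusted p = 0.418 by limma; exact permutation p = 0.171, n = 4 per group). Without Ntn1-/- B and C the estimates were -0.27 for Mt1 and -0.052 for Mt2, and without Ntn1-/- B alone they were -0.50 and -0.46. The length and GC correction gave -0.49 for Mt1 and -0.63 for Mt2. Within a library, the ratio of Mt1 to Mt2 reads ran from 1.34 in Ntn1-/- D to 2.60 in Ntn1-/- B, and both genes were lowest in that library.

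Cdkn1a, the cell cycle inhibitor p21, is a target of p53 as well as of the glucocorticoid receptor (chr17:29227924-29237667, plus strand). It was read at 6969, 4457, 5261 and 5529 in Ntn1-/- chimeras and 6593, 7736, 7746 and 6895 in WT chimeras. Ntn1-/- A lay within the WT range and the other 3 Ntn1-/- libraries lay below it. The means were 5554 ± 1048 (SD, n = 4) and 7242 ± 588 (SD, n = 4), with a log2 fold change of -0.40 (standard error 0.14, adjusted p = 0.255 by limma; exact permutation p = 0.0857, n = 4 per group). The length and GC correction gave -0.26 (unadjusted p = 0.1 by limma), and leaving out Ntn1-/- B and C gave -0.22 (unadjusted p = 0.153).

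**Figure D2:**
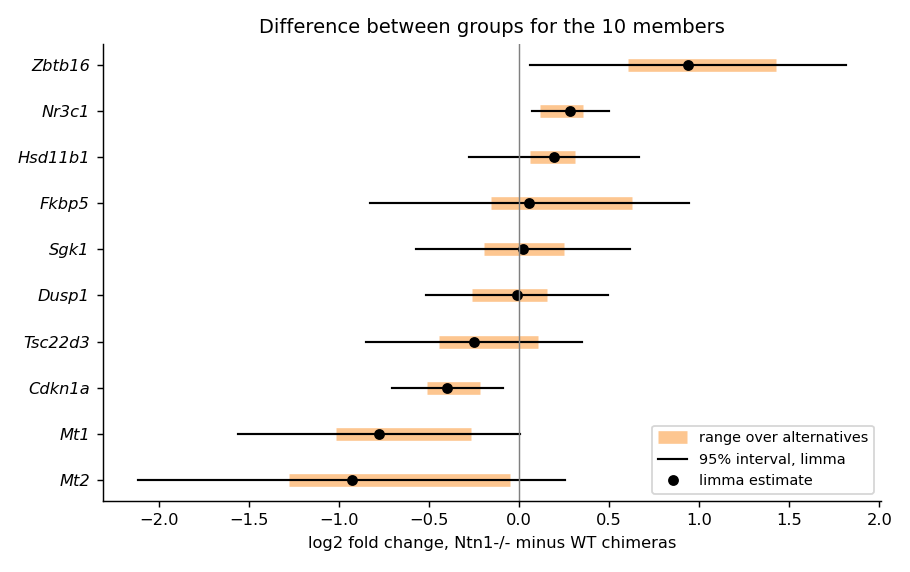
Log2 fold change of each member, Ntn1-/- minus WT chimeras (x axis), with the limma estimate as a dot, its 95% interval as a line and the range over 24 alternative settings as an orange bar. The intervals of Zbtb16, Nr3c1 and Cdkn1a lie on one side of 0, and the bars of Fkbp5, Tsc22d3, Sgk1 and Dusp1 cross it.

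Per length of transcript, Mt1 was the most abundant member at 435 ± 171 RPKM (SD over 8 libraries), followed by Mt2 at 376 ± 186, Cdkn1a at 124 ± 20.9, Dusp1 at 52.6 ± 13.2 and Hsd11b1 at 29.0 ± 7.17. Tsc22d3 (18.1 ± 5.28 RPKM), Sgk1 (15.9 ± 5.17), Fkbp5 (15.1 ± 6.14) and Nr3c1 (11.5 ± 1.86) overlapped, each neighbour being in this order in 5 or 6 of 8 libraries. Zbtb16 was the lowest at 6.98 ± 4.31 RPKM, below Nr3c1 in 7 of 8 libraries. The order of Mt2, Cdkn1a, Dusp1, Hsd11b1 and Tsc22d3 was kept in all 8 libraries, and Mt1 was above Mt2 in 7.

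Correlations between members were computed across the 8 libraries. Of 45 pairs, 27 had a positive and 18 a negative correlation over the 8 libraries (log2 normalized reads + 1), and 7 pairs had an adjusted p under 0.05 for Pearson's r by exact permutation, adjusted over the 45 pairs. None passed by Spearman's rho. The strongest pair was Mt1 with Mt2, with r = 0.982 (exact permutation p = 0.0001, adjusted p = 0.0045) and rho = 0.929 (adjusted p = 0.0502). Without the 2 libraries farthest from the median of Mt1 (Ntn1-/- B and C), r was 0.945. Tsc22d3 followed Mt2 with r = 0.929 (exact permutation p = 0.00069, adjusted p = 0.0155) and rho = 0.929 (adjusted p = 0.0502), and r = 0.772 without Ntn1-/- B and WT B.

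The other 5 pairs had an adjusted p of 0.0498 by exact permutation of Pearson's r, next to the threshold, and an adjusted p of 0.18 by rho. Fkbp5 with Tsc22d3 had r = 0.847 and rho = 0.786, and r = 0.932 without Ntn1-/- A and B. For Tsc22d3 with Mt1 these were r = 0.888 and rho = 0.81, and r = 0.648 without Ntn1-/- B and WT B. Nr3c1 ran against Mt1, with r = -0.85 and rho = -0.81, and r = -0.656 without Ntn1-/- B and WT D. Cdkn1a ran with Mt1 at r = 0.854 and rho = 0.786 and with Mt2 at r = 0.845 and rho = 0.81. Without Ntn1-/- B and C those 2 values were 0.463 and 0.334. These libraries lie farthest from the median of Mt1 and of Mt2, and leaving them out narrows the range of values. Without WT C and D the r values were 0.825 and 0.819, and as deviations from the group means 0.753 and 0.804.

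Because the groups themselves can pull genes together, the same pairs were set out as deviations from the group means. Mt1 with Mt2 then had r = 0.984, Tsc22d3 with Mt2 r = 0.944, Tsc22d3 with Mt1 r = 0.93 and Fkbp5 with Tsc22d3 r = 0.909. Nr3c1 ran against Mt1 at r = -0.75. Dusp1 ran against Mt1 at r = -0.927, a pair that did not pass over 8 libraries (r = -0.719, adjusted p = 0.1338 by exact permutation). By exact permutation within groups, 0 of the 45 pairs passed an adjusted p of 0.05, the smallest being 0.0521. With values corrected for length and GC content 10 pairs passed, and Tsc22d3 with Mt1 had r = 0.938 (adjusted p = 0.0045). With 6 libraries, without Ntn1-/- B and C or without WT C and D, no pair passed. The within-group and 6-library tests have so few orders that a single pair cannot pass after adjustment over 45 pairs, whatever its r. Without WT C and D, Mt1 with Mt2 had r = 0.99 at the smallest p possible (0.00139, adjusted p = 0.0626 by exact permutation). Without Ntn1-/- B and C the smallest p was 0.00556, above that value, for Mt1 with Mt2 (r = 0.945, adjusted p = 0.2502 by exact permutation). There r was 0.87 for Tsc22d3 with Mt2, 0.745 for Fkbp5 with Tsc22d3, 0.701 for Tsc22d3 with Mt1 and -0.638 for Nr3c1 with Mt1. Each was weaker than over all 8 libraries. The counts of 0 alone therefore cannot show whether correlations were lost.

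**Figure D3:**
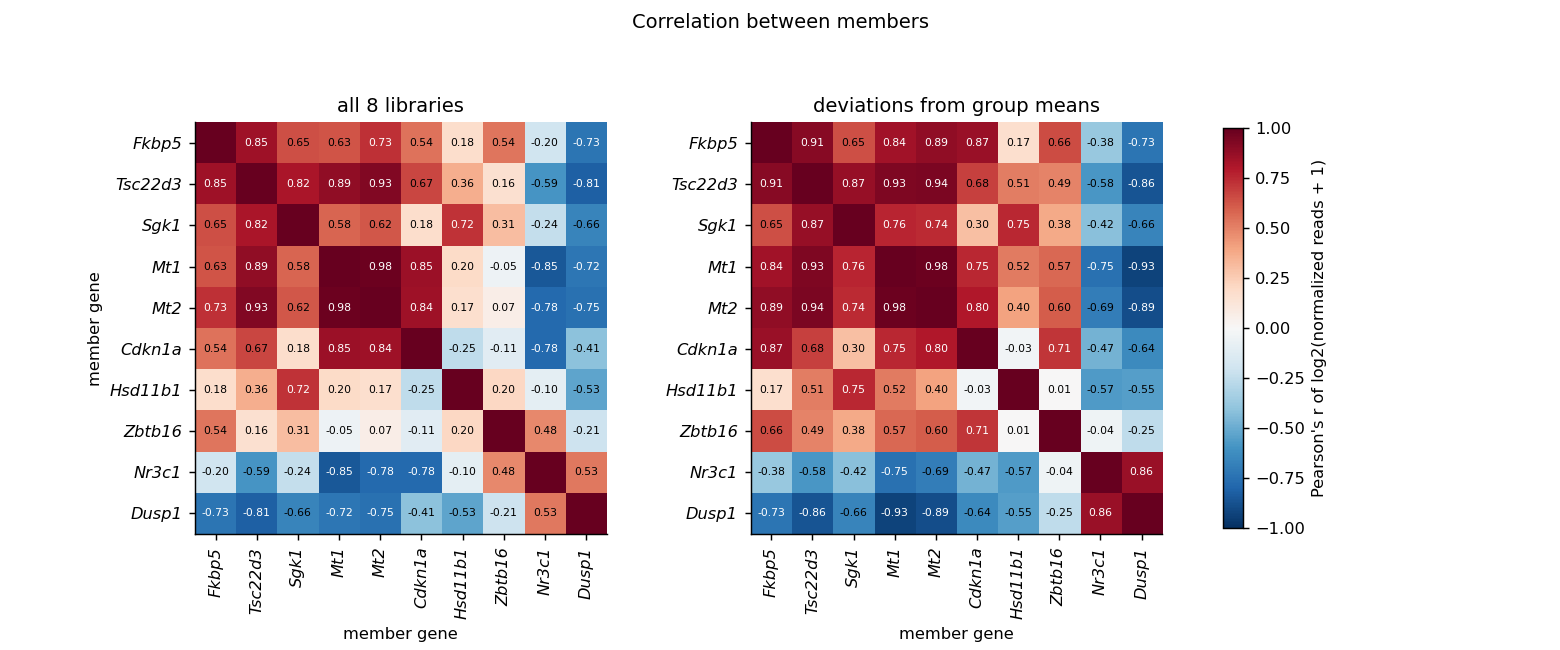
Pearson's r between members over 8 libraries (left) and between their deviations from the group means (right), on a color scale from -1 (blue) to 1 (red). Fkbp5, Tsc22d3, Sgk1, Mt1, Mt2 and Cdkn1a form a mostly red block, with Mt1 and Mt2 at 0.982 but Sgk1 and Cdkn1a pale at 0.178 (left). Nr3c1 and Dusp1 are blue against most of that block.

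Across all 14929 distinct symbols tested, Mt2 was the second closest gene to Mt1 by r and Mt1 the fourth closest to Mt2. Of the other pairs with a positive r and an adjusted p under 0.05, Tsc22d3 ranked 76 for Mt2 and 215 for Mt1, which in turn ranked 261 and 624 for Tsc22d3. Mt1 and Mt2 ranked 123 and 155 for Cdkn1a, which ranked 417 and 527 for them, and Tsc22d3 ranked 520 for Fkbp5. In these pairs many genes outside the list thus followed a member more closely than its partner did. The closest genes that are no members were Tmem104 (r = 0.983), Hps1 (r = 0.977) and Tmem167 (r = 0.971) for Mt1, and Vsig4 (r = 0.988), Tpm3 (r = 0.987) and Akr1b8 (r = 0.983) for Mt2. For Tsc22d3 they were Il17ra (r = 0.993), Clec5a (r = 0.99) and Man1c1 (r = 0.985), for Fkbp5 Foxm1 (r = 0.994), Slc7a6 (r = 0.987) and Kif23 (r = 0.983), and for Nr3c1 Ulk1 (r = 0.987), Spata7 (r = 0.984) and Suv420h1 (r = 0.983). For Zbtb16 they were Nrd1 (r = 0.985), Rap2c (r = 0.974) and Bivm (r = 0.967), for Sgk1 Gimap5 (r = 0.959), 3010026O09Rik (r = 0.958) and Gpr157 (r = 0.956), and for Hsd11b1 Tdrkh (r = 0.979), Irf4 (r = 0.96) and 2410127L17Rik (r = 0.956). For Dusp1 they were Larp7 (r = 0.989), Gli1 (r = 0.982) and Gjc1 (r = 0.979), and for Cdkn1a Clic1 (r = 0.987), Plod3 (r = 0.984) and Ykt6 (r = 0.982). These are descriptions over 8 libraries, taken as the best of many genes. Vsig4 and Clec5a are known as macrophage genes, and Foxm1 and Kif23 as genes of dividing cells.

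Marker levels of several cell types also differed among these libraries. Summed over 6 of 7 listed macrophage markers (Cd68, Csf1r, C1qa, C1qb, Mrc1 and Lyz2), none of them at 0, the level was 47360, 25154, 60102 and 99246 normalized reads in Ntn1-/- chimeras and 42861, 91567, 73039 and 83696 in WT chimeras. Ntn1-/- B was lowest, as it was for Tsc22d3, Mt1, Mt2, Fkbp5, Sgk1 and Cdkn1a. Ntn1-/- D and WT B were among the highest, as for Sgk1 and Tsc22d3. The remaining members differed: Nr3c1 was highest in Ntn1-/- B, Dusp1 was high there, Zbtb16 was lowest in WT C and Hsd11b1 in WT A. The 7 adipocyte markers summed to 71886 to 220970 in Ntn1-/- chimeras and 100670 to 241459 in WT chimeras, again lowest in Ntn1-/- B, and the 6 smooth muscle markers to 310699 to 808349 and 464170 to 772863, highest in Ntn1-/- B. The 6 thymocyte markers summed to 58.2 to 324 in Ntn1-/- chimeras and to 66.0 to 218 in WT chimeras, with overlap. The part of these cell types in the members' levels was not tested. Smooth muscle genes such as Acta2 were abundant in all 8 libraries, as the labelled tissue calls for.

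**Figure D4:**
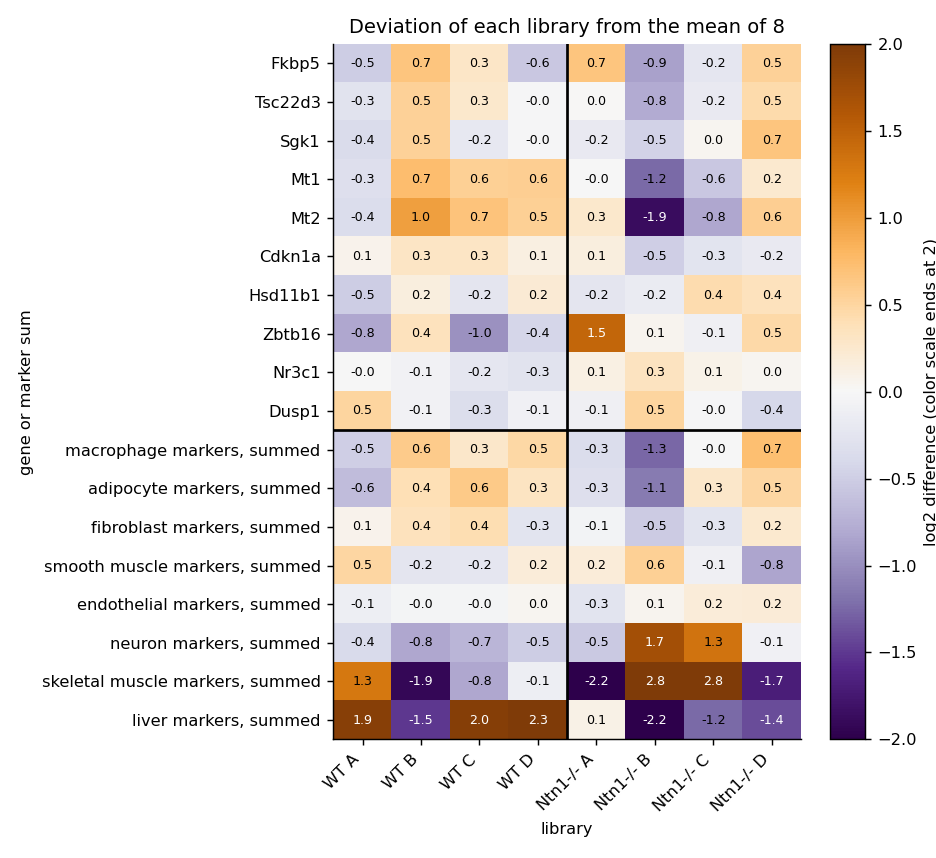
Log2 deviation of each library from the mean of 8 (color and number), for the 10 members above the line and 8 summed marker lists below it, with WT chimeras on the left and Ntn1-/- chimeras on the right. Ntn1-/- B is the lowest column for Mt1, Mt2, Tsc22d3 and the macrophage markers, and the highest for the smooth muscle markers.

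Companion lists were set beside the members, and no gene of any of them passed an adjusted p of 0.05 by limma. Their counts at an unadjusted p under 0.05 stand beside 8.37% higher and 7.25% lower over all genes tested, and their genes without overlap beside 5.13% higher and 5.34% lower. The members' own partners in receptor action numbered 15, of which 4 were higher and 0 lower at an unadjusted p under 0.05, with a median log2 fold change of 0.024. Ncoa2, a coactivator of the receptor, averaged 607 ± 74.1 normalized reads (SD, n = 4) against 444 ± 19.9, and all 4 Ntn1-/- libraries were above the WT libraries (log2 fold change 0.44, adjusted p = 0.248 by limma). Nr3c2, the mineralocorticoid receptor, read at 80.6, 123, 67.8 and 52.9 in Ntn1-/- chimeras and 42.6, 35.2, 18.7 and 43.6 in WT chimeras, also did not overlap (log2 fold change 1.19, standard error 0.34, adjusted p = 0.2485 by limma). The corepressor gene Ncor1 had a log2 fold change of 0.19 (adjusted p = 0.28 by limma), also without overlap. In this list of 15, 3 genes were higher and 0 lower without overlap, where 5.13% and 5.34% of all genes were.

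Of 30 other glucocorticoid-induced genes, 5 were higher and 3 lower at an unadjusted p under 0.05 (8.37% and 7.25% over all genes), and the median log2 fold change was -0.027. Klf9, a Kruppel-like factor, was read at 1873, 1574, 965 and 1120 in Ntn1-/- chimeras and 659, 906, 569 and 748 in WT chimeras, without overlap (log2 fold change 0.91, standard error 0.22, adjusted p = 0.248 by limma). Cebpd, a factor of the acute inflammatory response, was read at 843, 740, 884 and 1182 against 1217, 1788, 1662 and 1338, lower in every Ntn1-/- library (log2 fold change -0.72, standard error 0.17, adjusted p = 0.248). Among these 30 genes no others were without overlap, where 5.13% of all genes were higher and 5.34% lower without overlap. Irs2, an insulin receptor substrate, had a log2 fold change of 0.73, and Lcn2, an iron-carrier protein of inflammation, one of -1.58 (standard error 0.53, adjusted p = 0.255).

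Of 17 inflammatory genes that glucocorticoids repress, 1 was higher and 2 lower at an unadjusted p under 0.05, near the shares of all genes, and 14 of 17 estimates were negative with a median of -0.28. The chemokine genes Ccl4 and Cxcl1 had log2 fold changes of -1.29 and -0.62, Il1b, which encodes interleukin-1 beta, one of -0.61, and the endothelial adhesion gene Sele one of 0.71. None of these 4 had an adjusted p under 0.257 by limma, and the macrophage marker sums given above differ among the same libraries. The 17 clock genes had a median of 0.31, with 7 higher and 1 lower at an unadjusted p under 0.05. Over all genes 8.37% were higher and 7.25% lower. Like the other lists, the clock list was chosen with earlier results of these data known, so its count is not a test of the list. Among the clock genes, Nfil3 had a log2 fold change of -1.01 and Nr1d2, a repressor of the core clock, one of 0.55. Hlf, an output factor, had 0.53 and Cry2, a core repressor, 0.22. Without overlap, 2 clock genes were higher (Hlf and Cry2) and 1 lower (Nfil3), where 5.13% and 5.34% of all genes were. Glucocorticoid levels follow the day, and the hour of collection is not given in the sources used here. Per1, which is both a clock gene and a glucocorticoid target, was at 1231 to 2256 normalized reads in Ntn1-/- chimeras and 1406 to 2415 in WT chimeras.

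Of 21 immediate early genes, the class that Dusp1 belongs to, 4 were higher and 0 lower at an unadjusted p under 0.05 (8.37% and 7.25% over all genes). The 4 with the smallest p, all transcription factors, were Fos (log2 fold change 0.56), Egr1 (0.63), Nr4a2 (0.43) and Nr4a1 (0.56). Over the whole list 11 estimates were higher and 10 lower, with a median of 0.0126, beside -0.012 for Dusp1. Of 17 p53 targets, the class that shares Cdkn1a, 2 were higher and 1 lower at an unadjusted p under 0.05, near the shares of all genes. Bax, which promotes apoptosis, was lower in every Ntn1-/- library (log2 fold change -0.28, adjusted p = 0.2485 by limma), while Rrm2b and Trp53inp1 had 0.50 and 0.38 and Ei24 had -0.15. Of 10 genes of the metal response, 1 was higher and 1 lower, also near those shares: Gclc, which makes glutathione, at 0.24 and the zinc transporter Slc39a7 at -0.19, both without overlap. The zinc importer gene Slc39a1 had -0.24 and the heme oxygenase gene Hmox1 had -0.63 (adjusted p = 0.431 by limma). Mt3, a brain-type metallothionein, averaged 55.7 ± 37.6 normalized reads (SD, n = 4) in Ntn1-/- chimeras and 30.2 ± 9.24 in WT chimeras.

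**Figure D5:**
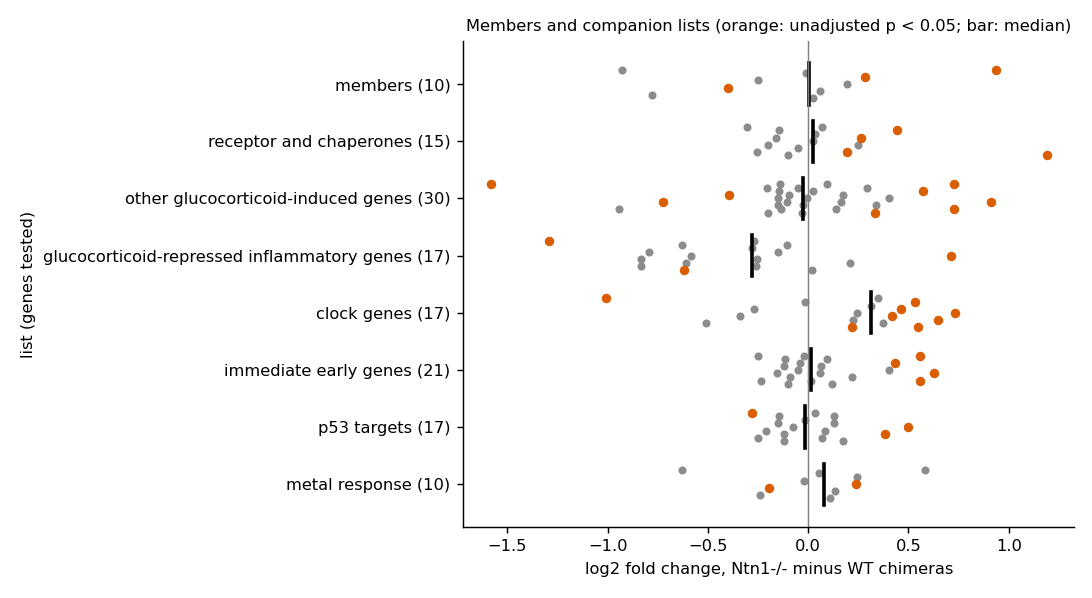
Log2 fold change, Ntn1-/- minus WT chimeras (x axis), of the genes of each list (rows, with the number tested), with genes at an unadjusted p under 0.05 in orange and the median as a bar. The members straddle 0 with a median of 0.0058, the clock genes have the highest median (0.31) and the repressed inflammatory genes the lowest (-0.28).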

How the data were processed

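RNA-seq was made from whole aortas of 8 mice, 4 per group, and read from a single end over 50 nucleotides. For alignment to mm9 the authors used TopHat 2.0.9 with 2 mismatches permitted, counting per gene with featureCounts and comparing groups with DESeq2. The annotation and strand setting are not given in the sources used here, so that reads of overlapping or antisense genes cannot be told apart. The deposited signal holds reads per gene after division by each library's own size factor, set by the authors. The authors' own fold changes, p-values and pathway table were not used. Undoing that division turned 100.0% of 187360 values into whole reads (tolerance 0.001), with totals of 19879329 to 28202931 reads in genes per library. Over 28 pairs of libraries the chi-square per degree of freedom was 9.51 to 176, so none was a duplicate.

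limma 3.58.1 (eBayes with a trend) was fitted on log2(value + 1) for 14931 genes with a mean of at least 10, with Benjamini-Hochberg adjustment over all of them and a threshold of 0.05. Fold changes are therefore on the log2(value + 1) scale and understate the change of low genes. edgeR 4.0.16 and DESeq2 1.42.0 (R 4.3.3) served as alternatives on the recovered reads, beside pseudocounts of 0.5 and 5, no filter, a mean of at least 50, other scalings, quality weights, the replicate block, a length and GC correction (98.3% of genes had both values), leaving out each library, and leaving out Ntn1-/- B and C or WT C and D. RPKM was computed from the recovered reads and the summed exon length of an mm9 annotation that may not be the authors' own. Single genes were also tested by exact 2-sided permutation, and pairs of members by exact permutation of Pearson's r and Spearman's rho. The model fits were tested on simulated data. The genes named were all 10 members, up to 4 of each list with the smallest p, 3 similar genes for each member described, and marker genes; Per1, Mt3 and the library sets for the correlations were chosen after the data were seen. A further list gene that this rule would name is not reported here. The members and lists were chosen with earlier results of these data known.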

Additional observations from a re-analysis of the deposited data

Results flagged for a closer look

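In 76 groups of 4 libraries examined (the members and the list genes named), 3 had a library far from the other 3, where chance flags about 1 in 20 groups, or 3.8. None was a group of a member. Cry2, a core clock repressor, was at 1203 normalized reads in WT replicate D and at 1334 to 1351 in the other WT chimeras. Nr4a2, an immediate early transcription factor, was at 161 in Ntn1-/- replicate D and at 203 to 208 in the other Ntn1-/- chimeras. Trp53inp1, a p53 target, was at 1495 in WT replicate B and at 1028 to 1047 in the other WT chimeras.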

How the results depend on the processing

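No member passed an adjusted p of 0.05 by limma, edgeR or DESeq2 under any of 24 settings, nor at 0.1 by limma; by DESeq2 the smallest adjusted p of a member was 0.097, for Nr3c1. At an unadjusted p under 0.05, 3 members passed by limma, 3 by edgeR and 4 by DESeq2. Over all genes limma and edgeR called 0 (2333 and 2461 at an unadjusted p under 0.05) and DESeq2 544. Zbtb16, Nr3c1 and Hsd11b1 stayed positive and Mt1, Mt2 and Cdkn1a negative in all 24 settings. The estimate of Fkbp5 was -0.14 with quality weights, -0.027 with the length and GC correction, with or without the replicate block, -0.048 without WT C and D, and -0.15 to 0.35 leaving out 1 library. That of Tsc22d3 was 0.11 without Ntn1-/- B and C and -0.44 to -0.030 leaving out 1 library. Sgk1 was at -0.030 with the length and GC correction, with or without the block, at -0.073 without WT C and D and at -0.19 to 0.20 leaving out 1 library. Dusp1 was at 0.065 in edgeR with library totals, 0.042 with quality weights, 0.075 with the length and GC correction, with or without the block, and -0.18 to 0.16 leaving out 1 library. The cause of these reversals was not tested. Leaving out 1 library gave 0.61 to 1.21 for Zbtb16, 0.22 to 0.33 for Nr3c1, 0.058 to 0.31 for Hsd11b1, -1.01 to -0.50 for Mt1, -1.28 to -0.46 for Mt2 and -0.51 to -0.30 for Cdkn1a.

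Replicate letters are shared between groups, and the sources used here do not say whether they pair the mice. Deviations from the group means had r = -0.008, -0.304, 0.151 and -0.256 between libraries of the same letter, A to D. Between libraries of different letters r ran from -0.659 to 0.636. These values cannot settle whether the mice were paired, and the main fit did not pair them. With the replicate block the count by limma was 0 past the adjusted threshold and 1806 by unadjusted p, and Zbtb16 had 0.94 (unadjusted p = 0.0562) and Nr3c1 0.28 (unadjusted p = 0.013). Of the 45 correlations, 7 passed pooled, 0 as deviations from the group means and 10 with length and GC corrected values. Without Ntn1-/- B and C or without WT C and D, 0 of 45 passed, 2 alternatives with 6 libraries chosen after seeing the data. In the settings with 0, the permutation has too few orders for a single pair to pass. These counts alone therefore cannot show whether correlations were lost. Without Ntn1-/- B and C, r of the 7 pairs that passed pooled was weaker than over 8 libraries.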
